A study of Chromochloris zofingiensis with 12 samples.

Results

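A set of 19 genes of the green microalga *Chromochloris zofingiensis* was chosen on a normalized log2 scale. Their mean mRNA level on that scale was lowest where high light and low nitrate were applied together. Each stress alone left the mean within 1 unit of that of the unstressed culture. Without the normalization, the combined stress gave the lowest mean in 14 of the 19, and each of its libraries was lowest in 5. The 19 were found among 15274 genes in the expression table, of which 14916 had a value above 0 in at least 1 of the 12 libraries and were tested. Wild-type cells of strain CCAP 211/14 were grown in continuous photobioreactors diluted at 0.5 d-1, and samples came from 4 h into the light period. Poly(A) RNA was sequenced in 4 conditions with 3 libraries each. HL 1 mM combined high light (HL, a peak of 1000 µE m-2 s-1 where it met the reactor) with 1 mM nitrate in the feed. HL 10 mM combined the same light at the reactor surface with 10 mM nitrate. LL 1 mM combined low light (LL, a peak of 300 µE m-2 s-1) with 1 mM nitrate. LL 10 mM combined low light with 10 mM nitrate and was the unstressed control. According to the study, the light available to the average cell also depends on biomass concentration. That light is not given for these libraries, so the light step may have differed between the nitrate levels.

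Nitrate is the nitrogen source from which the alga makes amino acids, nucleotides and chlorophyll, and a culture fed little of it keeps growing only as fast as nitrogen arrives. Light beyond what carbon fixation can use puts pressure on the photosystems, and green algae respond with changes in light harvesting, photoprotective pigments and repair. In *C. zofingiensis*, nitrogen limitation and strong light are also the conditions that favour the secondary carotenoid astaxanthin, and the study crossed them.

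Levels were read from FPKM, fragment numbers divided by transcript length and by the total of mapped fragments. The values were put on a log2(FPKM + 1) scale and quantile-normalized, a step that gives every library the same distribution of values. A gene was a member if its HL 1 mM mean lay at least 0.7 log2 below the mean of each of the other 3 conditions, if every HL 1 mM library lay below all 9 others, and if the HL 10 mM and LL 1 mM means each lay within 1 log2 of the LL 10 mM mean. The distance between the HL 1 mM mean and the lowest of the other 3 means is called the margin here. The genes were thus chosen by their normalized levels in all 4 conditions, so every difference between conditions below is a description of the members, and no p is given for them.

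The steps of the rule removed most genes early. A margin of at least 0.7 was reached by 86 genes, and in 85 of these every HL 1 mM library was also below the 9 others. Of the 85, 61 were left out because LL 1 mM alone lay more than 1 log2 below LL 10 mM, and in 27 of the 61 HL 10 mM alone did as well. The remaining 24 genes held 5 of the 100 genes with the highest mean FPKM in LL 10 mM, which the rule leaves out, and none of the 25 carotenoid synthesis genes listed by the study. Every HL 1 mM library was below the 9 others, with any margin, in 1230 of 14916 genes (8.25%). The mirrored rule, with HL 1 mM highest, was met by 30 genes.

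The table pairs none of these gene IDs with a product, so the members are known here by their IDs and levels, and their functions were not analysed. An FPKM is a share of a library, so less of a transcript and more of the others cannot be told apart. The files hold no read counts, and the depth behind each value is unknown. Samples were taken on 3 consecutive days and measured in triplicate, and whether a condition's 3 libraries stand for days, cultures or repeat measurements is not given in the sources used here, so the spread between libraries may be partly technical. Before normalization the median FPKM of a library was 19.8 to 20.8 in HL 1 mM and 13.0 to 14.7 in HL 10 mM. The LL libraries had medians of 17.8 to 19.0 with 1 mM and 12.6 to 14.0 with 10 mM nitrate, so the 1 mM libraries stood above the 10 mM libraries by a shift that normalization removes. How the members depend on that step is given further on.

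Across the 19 genes the margin had a median of 0.84 log2 and a range of 0.70 to 1.31, beside a median of -0.09 over all genes tested. HL 1 mM minus LL 10 mM had a median of -1.04 (range -1.88 to -0.72). HL 1 mM minus HL 10 mM had a median of -1.05 (-2.14 to -0.70), and HL 1 mM minus LL 1 mM had a median of -1.01 (-1.76 to -0.71). The 2 stresses applied singly gave medians near 0, with 0.06 for HL 10 mM minus LL 10 mM (-0.69 to 0.67) and -0.06 for LL 1 mM minus LL 10 mM (-0.93 to 0.89). HL 10 mM was above LL 10 mM in 12 members and LL 1 mM was above it in 7. Over all genes the medians of these differences were 0.02 and -0.04 log2, and neither count is read as particular to the members. The sum of the 2 single differences is the additive expectation. The HL 1 mM level was below it in 19 of 19 members, a side that the rule largely fixed. The share of all genes below it is not given here, so nothing is read from this count. The distance of the HL 1 mM level from the additive expectation, the interaction, had a median of -1.15 log2, beside -0.03 over all genes.

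The median LL 10 mM level was 3.41 log2 in the members and 4.09 over all genes. The mean deposited FPKM over 12 libraries was under 10 in 12 members and over 30 in 5, and it was at least 1 in all 19. The shares over all genes are not given beside these counts, and the library medians were only 12.6 to 20.8 FPKM. The counts are therefore not read as a trait of the members. The median member stood at the 37.5th percentile of LL 10 mM levels, with a range of 16.9 to 91.7. The spread between libraries of a condition, pooled as an SD on the log2 scale, had a median of 0.25 in the members and 0.13 over all genes.

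As background for the counts that follow, limma with a Benjamini-Hochberg adjusted p under 0.05 called 28.8% of all genes tested lower in HL 1 mM than in LL 10 mM, and it called 19 of 19 members. It called 33.2% lower in HL 1 mM than in HL 10 mM (19 members) and 2.41% lower in HL 1 mM than in LL 1 mM (17 members, without Cz15g09270 and Cz11g13200). For the interaction, 2.37% of genes were called below the additive expectation (10 members). The rule chose genes on these contrasts, so nothing is read from the members' counts. For single stresses, 5.67% of genes were called lower in HL 10 mM than in LL 10 mM (1 member, Cz05g04080), 5.81% higher (2 members, Cz16g01150 and Cz03g36250), 25.2% lower in LL 1 mM than in LL 10 mM (6 members) and 21.3% higher (3 members, Cz12g07070, Cz13g05050 and UNPLg00371).

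**Figure D1:**
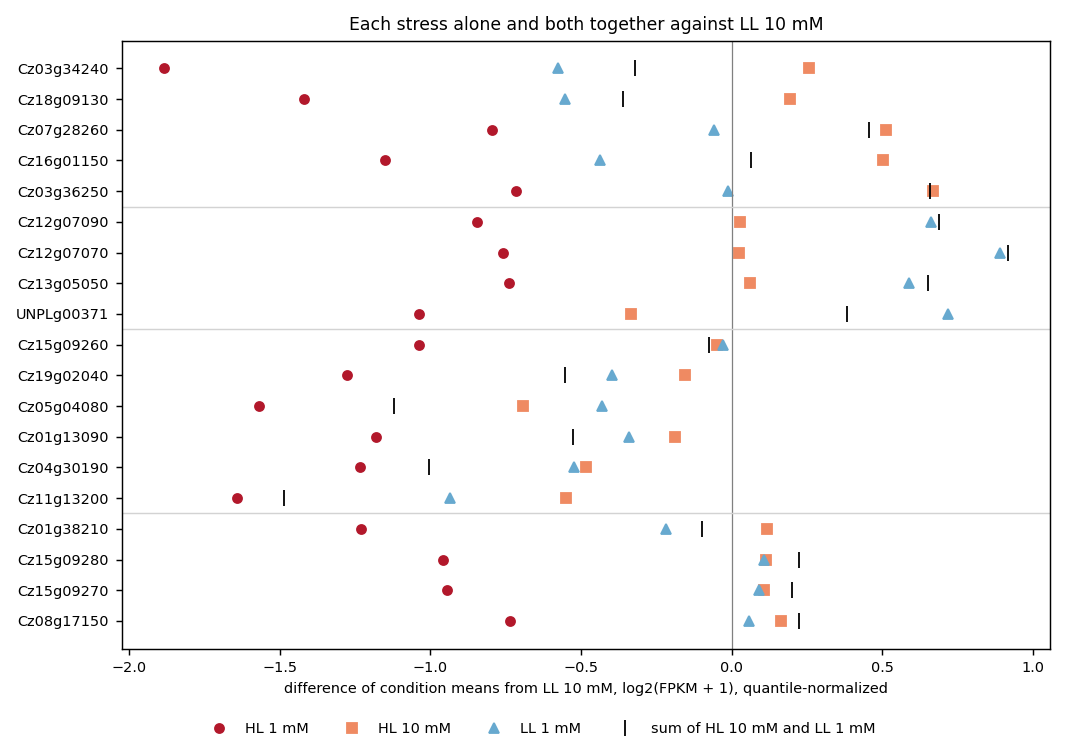
Differences of the HL 1 mM (circles), HL 10 mM (squares) and LL 1 mM (triangles) means from the LL 10 mM mean for each of the 19 genes on the quantile-normalized log2(FPKM + 1) scale, with the sum of the 2 single differences as a tick. All 19 circles lie between -1.88 and -0.72 and to the left of their tick, a side that the rule largely fixed. The squares and triangles lie on both sides of 0.

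The members fell into 4 shapes by what each stress did alone, a grouping made after the values were seen. In 5 genes every HL 10 mM library was above every LL 10 mM library, which held for 17.3% of all genes. In 4 genes every LL 1 mM library was above every LL 10 mM library, which held for 24.4% of all genes, so neither count is a result about the members. Together with the separation from LL 1 mM or HL 10 mM that the rule asked for, the light difference changed sign without overlap in those 5 members, beside 1.88% of all genes, and the nitrate difference in those 4, beside 0.53% of all genes. Nothing is read from these counts, because the rule fixed one side of each. In 6 genes both single-stress means were below LL 10 mM, and the other 4 had neither pattern.

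**Figure D2:**
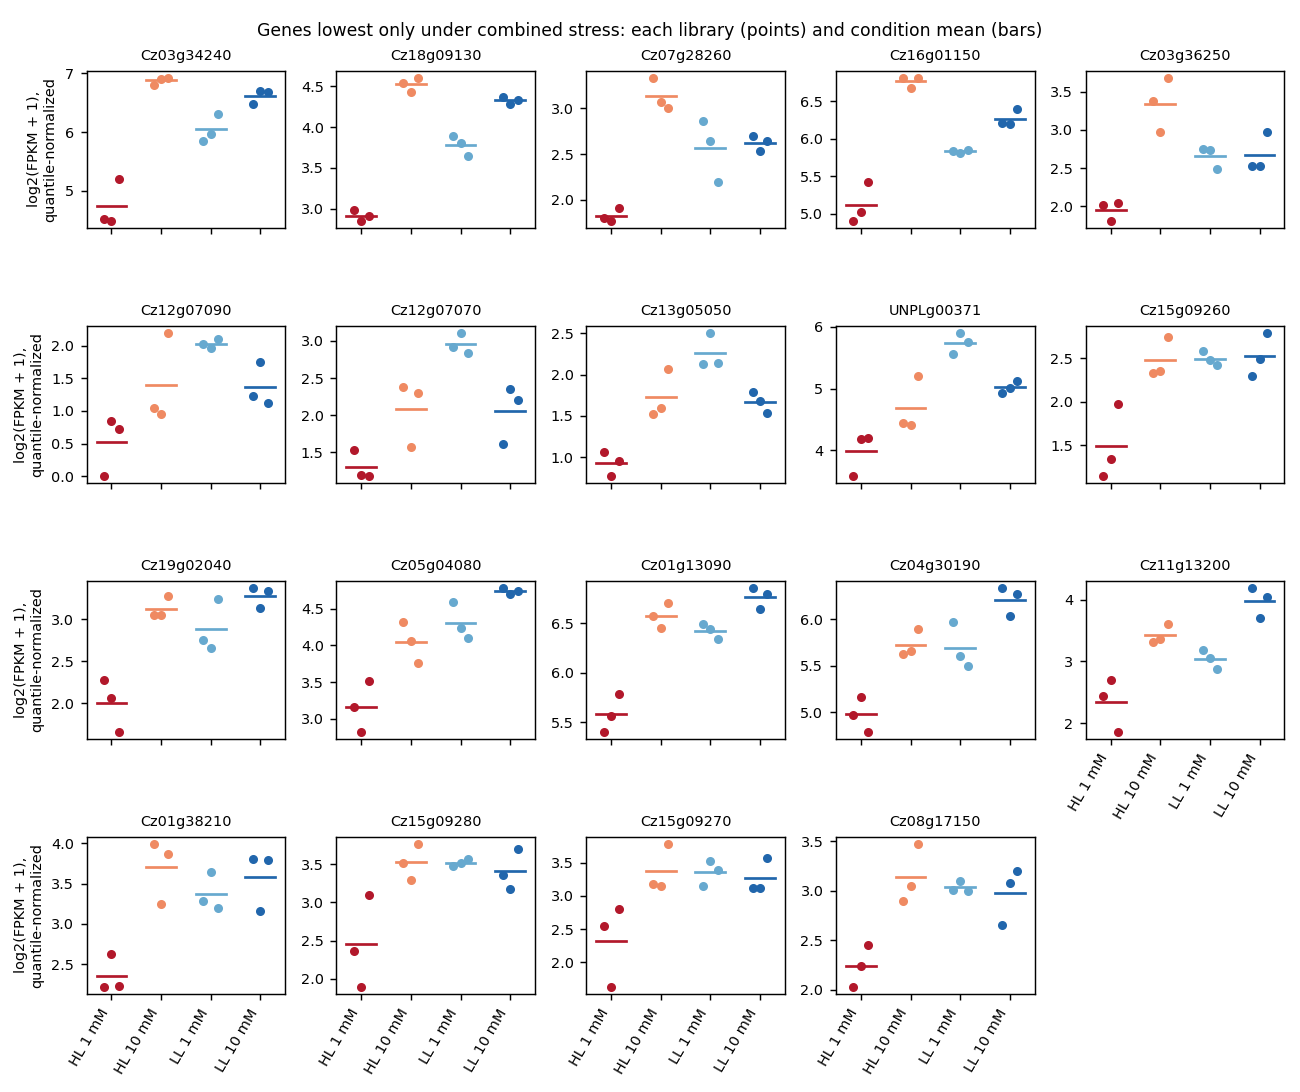
Quantile-normalized log2(FPKM + 1) of every library (points) and the mean of each condition (bars) for the 19 genes, ordered by shape, on axes that do not start at 0. The HL 1 mM points are the lowest in every panel, as the rule asked. HL 10 mM has the highest mean for 9 genes, LL 1 mM for 4 and LL 10 mM for 6. These counts come without the shares over all genes and are not read as a trait of the set.

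The first shape was higher under high light at 10 mM nitrate and lower under high light at 1 mM nitrate. Cz03g34240 had the largest margin of all members, 1.31 log2. Its normalized FPKM was 21.8, 21.5 and 35.9 in HL 1 mM, 111, 119 and 120.4 in HL 10 mM, 56.8, 61.4 and 78.6 in LL 1 mM, and 88.5, 103 and 102 in LL 10 mM. The third HL 1 mM library was well above the other two yet below all 9 other libraries, and the 4 conditions did not overlap with one another. HL 1 mM averaged 26.4 ± 8.26, HL 10 mM 117 ± 5.10, LL 1 mM 65.6 ± 11.4 and LL 10 mM 97.6 ± 7.91 (SD, n = 3 for each). On the log2 scale HL 1 mM was -1.88 from LL 10 mM and -2.14 from HL 10 mM, and the interaction was -1.56.

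Cz18g09130 was the member with the smallest spread over the HL 1 mM libraries (SD 0.07 log2). It measured 6.89, 6.21 and 6.49 in HL 1 mM, 22.4, 20.5 and 23.3 normalized FPKM in HL 10 mM, 13.8, 13.0 and 11.5 in LL 1 mM, and 19.8, 18.5 and 19.2 in LL 10 mM. The 4 conditions again stood apart without overlap, in the same order as for Cz03g34240, and HL 1 mM was -1.42 log2 from LL 10 mM.

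Cz16g01150 was a well-expressed member, at the 88.0th percentile of LL 10 mM levels. The libraries held 28.9, 31.5 and 41.8 normalized FPKM in HL 1 mM, 111, 102 and 111 in HL 10 mM, 56.0, 54.8 and 56.7 in LL 1 mM, and 73.0, 72.4 and 82.8 in LL 10 mM. The order of the conditions matched the preceding pair of genes and none overlapped. The high light difference at 10 mM nitrate was 0.50 log2 upward, and the one at 1 mM nitrate was -0.71.

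The other 2 genes of this shape were expressed more weakly, and in both LL 1 mM and LL 10 mM overlapped. Cz07g28260 had 2.48, 2.41 and 2.77 normalized FPKM in HL 1 mM, 9.09, 7.38 and 7.05 in HL 10 mM, 6.28, 5.24 and 3.56 in LL 1 mM, and 5.46, 4.79 and 5.24 in LL 10 mM. Cz03g36250 had 3.06, 2.50 and 3.11 in HL 1 mM, 9.35, 6.87 and 11.8 in HL 10 mM, 5.75, 5.69 and 4.62 in LL 1 mM, and 4.77, 4.75 and 6.82 in LL 10 mM. Cz03g36250 had the highest HL 10 mM minus LL 10 mM difference of all members, 0.67 log2, although its lowest HL 10 mM library exceeded its highest LL 10 mM library only narrowly. Its margin of 0.71 was among the 3 smallest.

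In the second shape the nitrate difference changed sign with light: the 1 mM libraries were higher than the 10 mM libraries in low light and lower in high light. UNPLg00371, the most expressed of these genes, had 11.0, 17.1 and 17.3 normalized FPKM in HL 1 mM, 20.9, 20.3 and 35.9 in HL 10 mM, 46.3, 58.7 and 53.1 in LL 1 mM, and 29.4, 31.4 and 33.9 in LL 10 mM. The LL 1 mM libraries were the highest and did not overlap with any other condition, while the third HL 10 mM library reached above the LL 10 mM range. The mean was 15.1 ± 3.62 in HL 1 mM, against 52.7 ± 6.22 in LL 1 mM (SD, n = 3 each), a difference of -1.76 log2 that was the most negative of the 19. Its margin was set by HL 10 mM and was the smallest of all members, 0.70.

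Cz12g07070 had the most negative interaction, -1.68 log2, and the highest LL 1 mM minus LL 10 mM difference, 0.89. Its normalized FPKM was 1.89, 1.28 and 1.27 in HL 1 mM, 4.21, 1.98 and 3.93 in HL 10 mM, 6.58, 7.60 and 6.12 in LL 1 mM, and 2.07, 4.13 and 3.61 in LL 10 mM. The highest HL 1 mM library and the lowest HL 10 mM library were 0.04 log2 apart, the narrowest gap among the members.

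Cz12g07090 was the weakest member in LL 10 mM, with 0, 0.792 and 0.650 normalized FPKM in HL 1 mM, 1.06, 0.936 and 3.56 in HL 10 mM, 3.07, 2.88 and 3.29 in LL 1 mM, and 1.35, 2.36 and 1.17 in LL 10 mM. It was the 1 member listed at 0 in a library, and its pooled SD of 0.45 log2 was the widest of the 19. Cz13g05050 had 1.08, 0.702 and 0.932 in HL 1 mM, 1.87, 2.01 and 3.20 in HL 10 mM, 3.37, 4.66 and 3.40 in LL 1 mM, and 2.45, 2.21 and 1.88 in LL 10 mM, with LL 1 mM above the other conditions and HL 10 mM overlapping with LL 10 mM.

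In the third shape the mean under each stress alone was below the control mean, and the mean under both was lowest. Among these genes limma called HL 10 mM lower than LL 10 mM only in Cz05g04080. It called LL 1 mM lower only in Cz01g13090, Cz04g30190 and Cz11g13200. Cz01g13090 had the highest LL 10 mM level of the members (91.7th percentile). The gene stood at 41.4, 46.3 and 54.1 normalized FPKM in HL 1 mM, 94.4, 86.7 and 103 in HL 10 mM, 88.8, 86.1 and 80.0 in LL 1 mM, and 114.5, 98.9 and 110.3 in LL 10 mM. HL 1 mM was far from the rest, while HL 10 mM overlapped with both LL conditions. HL 1 mM averaged 47.3 ± 6.41, against 108 ± 8.10 for LL 10 mM (SD, n = 3 for each), a difference of -1.18 log2.

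Cz04g30190 and Cz11g13200 came closest to an additive response. Cz04g30190 had 30.4, 34.8 and 26.7 normalized FPKM in HL 1 mM, 48.5, 49.5 and 58.5 in HL 10 mM, 61.5, 47.7 and 44.1 in LL 1 mM, and 79.5, 64.4 and 76.1 in LL 10 mM. Cz11g13200 had 4.45, 5.50 and 2.63 in HL 1 mM, 8.97, 9.28 and 11.1 in HL 10 mM, 8.14, 7.34 and 6.35 in LL 1 mM, and 17.2, 12.0 and 15.5 in LL 10 mM. The interaction was -0.23 log2 in Cz04g30190 and -0.16 in Cz11g13200, the values nearest to 0 among the members. Cz11g13200 also had the lowest LL 1 mM minus LL 10 mM difference of the members, -0.93, just inside the limit of 1.

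Cz05g04080 had the lowest HL 10 mM minus LL 10 mM difference of the members, -0.69 log2. Its normalized FPKM was 7.93, 6.11 and 10.4 in HL 1 mM, 18.9, 15.7 and 12.5 in HL 10 mM, 23.1, 17.9 and 16.1 in LL 1 mM, and 26.3, 25.0 and 25.8 in LL 10 mM, with no overlap between LL 10 mM and any other condition. Cz19g02040 had 3.84, 3.20 and 2.17 in HL 1 mM, 7.29, 7.29 and 8.67 in HL 10 mM, 5.74, 5.32 and 8.45 in LL 1 mM, and 9.31, 7.78 and 9.14 in LL 10 mM, and only HL 1 mM was separate from the rest.

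The last shape was close to flat outside HL 1 mM. Cz01g38210 had the second largest margin, 1.01 log2. Its normalized FPKM was 3.65, 5.16 and 3.70 in HL 1 mM, 15.0, 8.54 and 13.6 in HL 10 mM, 8.71, 11.5 and 8.16 in LL 1 mM, and 13.0, 7.97 and 12.9 in LL 10 mM. The 9 other libraries of Cz01g38210 overlapped freely, with the second library low in both 10 mM conditions. Cz08g17150 had 3.08, 3.72 and 4.46 in HL 1 mM, 6.47, 7.27 and 10.1 in HL 10 mM, 7.05, 7.54 and 7.00 in LL 1 mM, and 5.28, 7.46 and 8.17 in LL 10 mM, and its 3 other conditions overlapped as well.

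Cz15g09260, Cz15g09270 and Cz15g09280 follow one another in the table's IDs, the only members that do, and they shared nearly the same profile. Cz15g09260 had 1.20, 1.54 and 2.91 normalized FPKM in HL 1 mM, 4.03, 4.10 and 5.72 in HL 10 mM, 4.99, 4.59 and 4.37 in LL 1 mM, and 3.90, 4.62 and 5.91 in LL 10 mM. Cz15g09270 had 4.81, 2.09 and 5.95 in HL 1 mM, 8.08, 7.89 and 12.8 in HL 10 mM, 7.89, 10.5 and 9.54 in LL 1 mM, and 7.67, 7.66 and 10.9 in LL 10 mM. Cz15g09280 had 4.17, 2.72 and 7.54 in HL 1 mM, 10.4, 8.82 and 12.6 in HL 10 mM, 10.1, 10.4 and 10.8 in LL 1 mM, and 9.24, 8.03 and 12.0 in LL 10 mM. In all 3 genes HL 1 mM replicate 3 was the highest HL 1 mM library, and the margins were 0.99, 0.95 and 0.96 log2. Cz15g09270 and Cz15g09280 had the widest spread over the HL 1 mM libraries among the members (SD 0.62 and 0.60 log2). As deposited, HL 1 mM overlapped with HL 10 mM and LL 10 mM in all 3 genes, and LL 1 mM had the highest mean. By its single-stress means Cz15g09260 belongs to the third shape, but those means were only -0.05 (HL 10 mM) and -0.03 log2 (LL 1 mM) from LL 10 mM. Neighbouring genes with like sequences can share reads, and whether the counting split reads among these 3 was not tested.

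The ID that follows the run, Cz15g10010, also had every HL 1 mM library lowest, with a margin of 1.13 log2, and was left out because LL 1 mM alone was -1.14 from LL 10 mM. Its normalized FPKM was 10.1, 7.34 and 10.5 in HL 1 mM, 24.1, 24.3 and 24.5 in HL 10 mM, 23.2, 18.4 and 22.9 in LL 1 mM, and 49.9, 48.6 and 46.4 in LL 10 mM. The ID before the run, Cz15g09250, had a margin of 0.12 and was not separate. A second set of near IDs lay around Cz12g07070 and Cz12g07090: Cz12g07060 and Cz12g07080 likewise had their highest mean in LL 1 mM and their lowest in HL 1 mM, with margins of 0.46 and 0.36, but HL 1 mM overlapped with other libraries in both. Of the 33 genes whose IDs adjoin a member and that are not members, 16 (48.5%) had the HL 1 mM mean lowest, beside 34.4% of all genes, and their median margin was -0.02 log2, beside -0.09 over all genes.

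**Figure D3:**
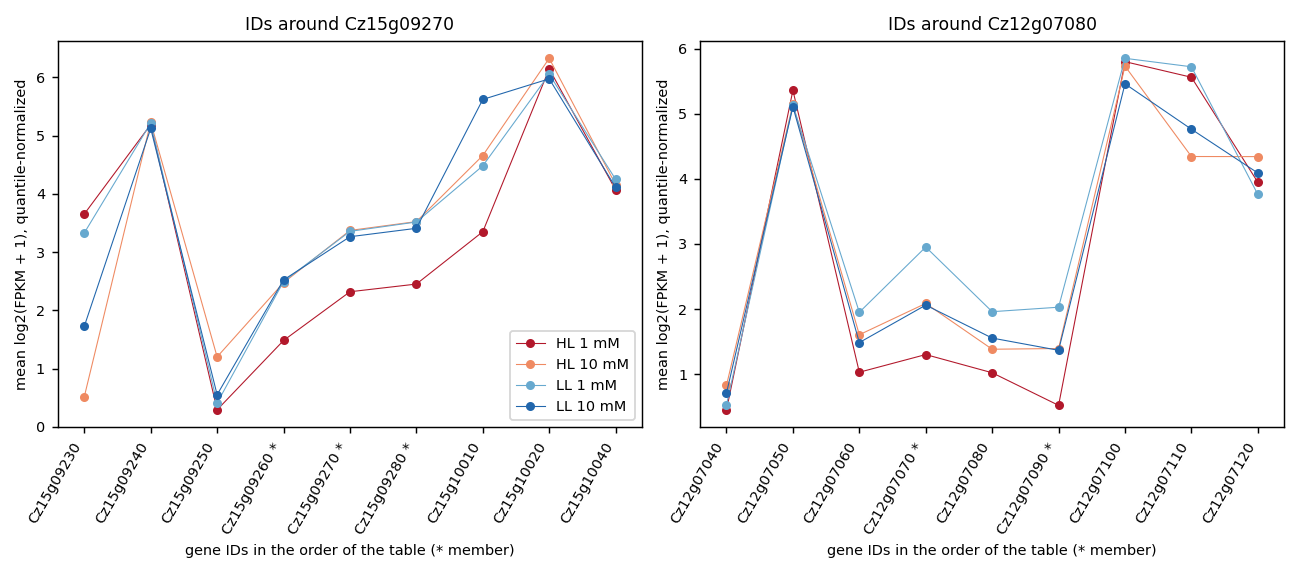
Mean quantile-normalized log2(FPKM + 1) of each condition for the genes with IDs around the Cz15 run and around Cz12g07080, in the order of the table, with members starred and lines joining points of 1 condition only to guide the eye. HL 1 mM is lowest over the 3 starred Cz15 genes and Cz15g10010, and over the 4 genes from Cz12g07060 to Cz12g07090. By smaller margins it is also lowest at Cz15g09250 (0.12 log2), Cz15g10040 (0.04) and Cz12g07040 (0.08). It is not lowest at genes such as Cz15g10020 or Cz12g07050.

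The edge of the set was set by the threshold of 0.7. Just inside it were UNPLg00371 (margin 0.70), Cz03g36250 (0.71) and Cz11g13200 (0.71). Just outside it, with every other part of the rule met, were Cz16g11250 (0.69), Cz09g26120 (0.69) and Cz07g16160 (0.67). Cz09g26120 had 75.3, 85.5 and 126 normalized FPKM in HL 1 mM, 233, 293 and 313 in HL 10 mM, 145, 155 and 155 in LL 1 mM, and 177, 194 and 199 in LL 10 mM, an order of conditions like that of Cz03g34240 at a higher level.

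How far most members stood apart depended on the scaling of the libraries. Without quantile normalization, the median gene was 0.41 log2 higher in HL 1 mM than in LL 10 mM, and the members' median difference was -0.38. On that scale 14 of 19 members had the HL 1 mM mean lowest, and in 5 every HL 1 mM library was below the 9 others, beside 2.4% of all genes. With libraries scaled to the same median FPKM, HL 1 mM was lowest by its mean in 19 members and by every library in 11 (10.7% of all genes). With libraries scaled to the same sum of FPKM, the corresponding counts were 11 and 5 (1.62% of all genes), and the median gene was 0.59 higher in HL 1 mM than in LL 10 mM.

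Cz03g34240, Cz18g09130, Cz01g13090, Cz16g01150 and Cz04g30190 had every HL 1 mM library lowest under all 4 scalings. As deposited, Cz03g34240 had 26.6, 25.3 and 41.4 FPKM in HL 1 mM, 112, 118 and 122 in HL 10 mM, 60.3, 65.0 and 82.1 in LL 1 mM, and 78.6, 89.8 and 90.0 in LL 10 mM. Only Cz03g34240 met the whole rule under all 4. At the other end, the deposited FPKM of Cz03g36250 was 4.60, 3.91 and 5.58 in HL 1 mM, against 3.60, 3.14 and 5.19 in LL 10 mM, so that its HL 1 mM mean was higher than that of LL 10 mM before normalization.

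The comparison within 1 mM nitrate was fixed by the choice of genes, since the rule asked for HL 1 mM at least 0.7 log2 below LL 1 mM. The scalings moved the median of all genes in that comparison only between -0.02 and 0.13 log2, so the lower HL 1 mM mean in 19 of 19 members under each scaling is no sign of stability. The members' median difference was -1.01 log2 with quantile normalization, -0.74 without it, -0.88 with the same median and -0.71 with the same sum. The interaction, which the rule also drew on, was below 0 in 19 members with quantile normalization and in 18 under each of the other 3 scalings. These counts are no sign of stability either.

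The shapes moved with scaling as well. As deposited, HL 1 mM overlapped with HL 10 mM in every gene of the second shape, so the sign change of the nitrate difference was not free of overlap there. Every HL 10 mM library was above every LL 10 mM library in 5 members with quantile normalization, 3 without it, 4 with the same median and 3 with the same sum, beside 17.3%, 25%, 17.3% and 24.7% of all genes. Every LL 1 mM library was above every LL 10 mM library in 4, 10, 4 and 10 members in that order, beside 24.4%, 57.6%, 24.8% and 70% of all genes. The all-gene median of LL 1 mM minus LL 10 mM moved with it, at -0.04, 0.31, -0.05 and 0.46 log2.

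**Figure D4:**
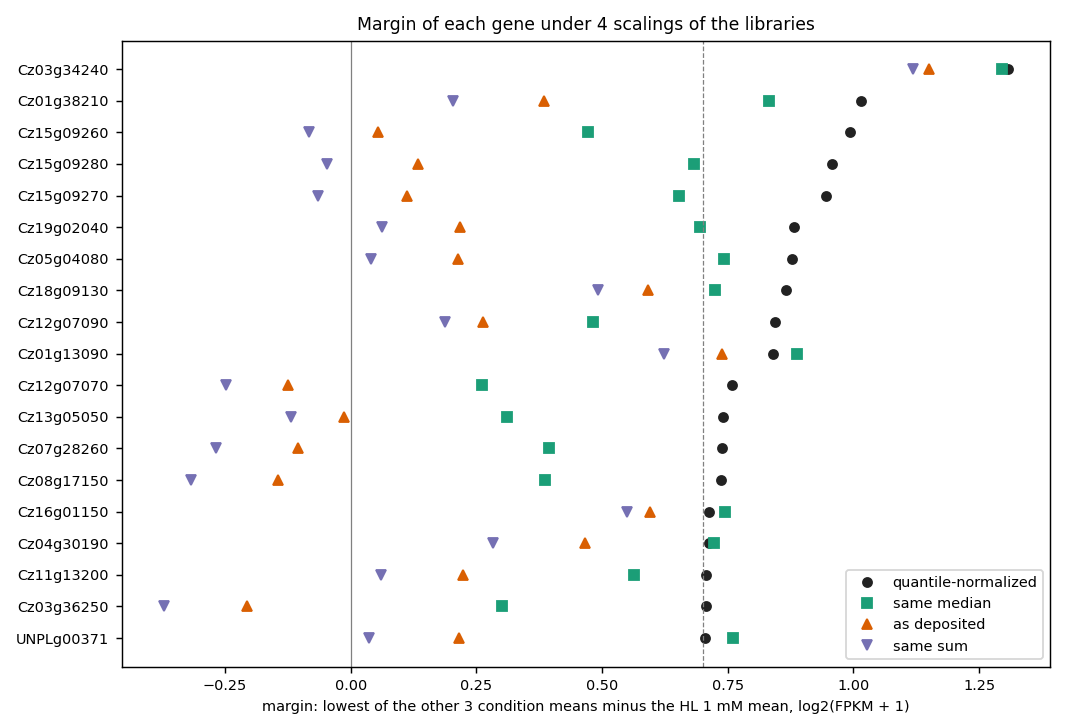
Margin of each of the 19 genes on the log2(FPKM + 1) scale under 4 scalings of the libraries, with the threshold of 0.7 dashed and 0 as a solid line. All 19 quantile-normalized points lie at or right of the dashed line, and the median margin was 0.84 there, 0.68 with the same median, 0.21 as deposited and 0.04 with the same sum.

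HL 1 mM replicate 3 was the highest of its condition in 11 of the 19 members, and replicates 1 and 2 in 4 each. The shares over all genes are not given here, so nothing is read from these counts.

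Of the 25 carotenoid synthesis genes, 6 had the HL 1 mM mean lowest, beside 34.4% of all genes, and 4 had every HL 1 mM library below the 9 others, beside 8.25% of all genes. None had a margin of 0.7. The 4 were LCYe, the lycopene epsilon-cyclase at the entry to lutein synthesis (margin 0.38 log2), CYP97A2, a cytochrome P450 of the carotene hydroxylase family (0.28), ZEP, zeaxanthin epoxidase (0.22), and CRTISO, carotenoid isomerase (0.17).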

How the data were processed

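The authors sequenced stranded mRNA libraries, ran FastQC, mapped reads with HISAT2 and quantified genes with StringTie on the published genome, and deposited one table of FPKM for 12 libraries (unit inferred from the values and that pipeline). It holds no read counts. Genes at 0 in all libraries were dropped, and log2(FPKM + 1) was quantile-normalized following the study's methods; normalized FPKM are these values with the log2 and the pseudocount of 1 undone. One limma model (R 4.3.3, limma 3.58.1) with 4 condition means and no replicate block was fitted to all genes, with Benjamini-Hochberg adjusted p-values (threshold 0.05); the script was tested on simulated data. The members, the gene lists and the rule for naming genes were chosen with earlier results of these data known. Genes were named by margin, level in LL 10 mM, closeness to the threshold, extreme single-stress or interaction values, spread over HL 1 mM and neighbouring IDs, which together with the shapes covers all members. Alternatives varied the pseudocount, the filter on low values, the normalization, the margin, the libraries, the replicate block, the empirical Bayes step, the samples in the fit and the call rule. Scaling to the same sum and the count of members lowest under each scaling were added after the data had been seen.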

Additional observations from a re-analysis of the deposited data

Results flagged for a closer look

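In 9 members a single-factor difference pointed one way in every library of one condition pair and the opposite way in every library of the other pair. The difference between the 2 effects was not tested, because the rule that chose the genes used both, and the negative side of each is the rule itself. The light difference changed sign in this way in 5 members, beside 1.88% of all genes, and the nitrate difference in 4, beside 0.53% of all genes. For high light minus low light, Cz03g34240 was -1.31 log2 at 1 mM nitrate and 0.26 at 10 mM, Cz18g09130 was -0.87 and 0.19, Cz07g28260 was -0.74 and 0.51, Cz16g01150 was -0.71 and 0.50, and Cz03g36250 was -0.71 and 0.67. For 1 mM minus 10 mM nitrate, Cz12g07090 was -0.87 in high light and 0.66 in low light, Cz12g07070 was -0.79 and 0.89, Cz13g05050 was -0.80 and 0.59, and UNPLg00371 was -0.70 and 0.72. All these differences are on the quantile-normalized scale. As deposited, HL 1 mM overlapped with HL 10 mM in each gene of the nitrate group. In Cz18g09130 and Cz03g36250 of the light group, HL 10 mM then overlapped with LL 10 mM. The light difference still changed sign without overlap in Cz03g34240, Cz07g28260 and Cz16g01150.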

How the results depend on the processing

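The set is sensitive to its own definition. In place of 19, the rule gave 30 genes with a pseudocount of 0.1, 4 without quantile normalization, 10 with libraries scaled to the same median, 2 scaled to the same sum, 50 with a margin of 0.5 and 2 with a margin of 1. The members' median HL 1 mM minus LL 10 mM of -1.04 log2 became -1.22 with the pseudocount of 0.1, -0.38 without quantile normalization and -0.21 with the same sum. The median interaction of -1.15 became -1.32, -0.87 and -0.86 under those settings and -0.95 with the same median. Leaving out 1 library at a time gave 13 to 31 genes, the fewest without HL 10 mM replicate 3 and the most without LL 1 mM replicate 3. The 2 medians then ran between -1.19 and -0.98 and between -1.31 and -1.04. Of the 19 genes, 7 met the rule in all 12 such sets and all 19 in at least 6.

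Without quantile normalization the margin turned negative in Cz12g07070 (-0.12 log2), Cz13g05050 (-0.0131), Cz07g28260 (-0.11), Cz08g17150 (-0.14) and Cz03g36250 (-0.21), and HL 1 mM minus LL 10 mM turned positive in Cz12g07070 (0.0565), Cz07g28260 (0.11), Cz08g17150 (0.14) and Cz03g36250 (0.21). With the same sum the margin was -0.0836 in Cz15g09260, -0.0464 in Cz15g09280, -0.0658 in Cz15g09270, -0.25 in Cz12g07070, -0.12 in Cz13g05050, -0.27 in Cz07g28260, -0.32 in Cz08g17150 and -0.37 in Cz03g36250. HL 1 mM minus LL 10 mM was then 0.0464 in Cz15g09280, 0.0658 in Cz15g09270, 0.20 in Cz12g07070, 0.0610 in Cz13g05050, 0.27 in Cz07g28260, 0.32 in Cz08g17150 and 0.37 in Cz03g36250. The cause of these shifts was not tested.

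Among all genes, limma called 4303 lower in HL 1 mM than in LL 10 mM, 360 lower than in LL 1 mM and 4959 lower than in HL 10 mM. Against LL 10 mM, HL 10 mM had 846 lower genes and LL 1 mM had 3757, and 354 genes lay below the additive expectation. Without quantile normalization the first 3 counts were 1027, 161 and 1530, and LL 1 mM against LL 10 mM gave 985. With the same sum these 4 were 613, 149, 887 and 566. With the same median the interaction gave 686. Asking also for a 2-fold change gave 622, 60, 545, 168, 438 and 90 in the order above. With only the libraries compared in the fit, HL 1 mM against LL 1 mM gave 181. Leaving out 1 library at a time gave 3697 to 4392, 134 to 610, 4343 to 5021, 544 to 916, 2948 to 3829 and 80 to 651. Counts moved by over 1.5 times for HL 1 mM against LL 1 mM without any 1 of the HL 1 mM or LL 1 mM libraries (610 without LL 1 mM replicate 3, 134 to 213 without the others), for HL 10 mM against LL 10 mM without HL 10 mM replicate 1 (544), and for the interaction without any library but HL 10 mM replicate 3 and LL 10 mM replicate 1 (651 without LL 1 mM replicate 3, 80 to 169 without the others).

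The deviations from the condition means of libraries with the same replicate number correlated over 0.1 in 12 of 18 pairs (r -0.06 to 0.44), not in all, so the numbers were not taken as pairs. Pairs with different numbers had r of -0.42 to 0.35, and 8 of 12 libraries correlated best with their own number, a hint of pairing from the data and not the design. With the replicate block the rule gave 20 genes, HL 1 mM against LL 1 mM gave 637 calls and the interaction 781. The empirical Bayes step, the filter on low values and the block moved no other count by over 1.5 times. The depth of the libraries is unknown, and for weakly expressed members no counting error can be given.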

Other observations

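On the normalized scale 5 abundant genes met every other part of the rule and were left out as among the 100 highest in LL 10 mM: Cz07g02100, Cz08g11160, Cz16g19040, Cz17g16010 and UNPLg00080. Their normalized margins were 1.97, 1.05, 0.91, 0.85 and 1.68 log2, and normalized HL 1 mM minus LL 10 mM was -2.69, -1.93, -1.90, -1.75 and -1.79. Quantile normalization gives genes of equal rank the same value, so differences among the top ranks are capped: Cz07g02100 had the same normalized FPKM in all HL 10 mM and LL 10 mM libraries, and UNPLg00080 in all LL libraries. On the deposited log2(FPKM + 1) scale HL 1 mM minus LL 10 mM was -4.24, -2.86, -2.85, -2.72 and -2.97 in the 5 genes. LL 1 mM minus LL 10 mM was then -2.35, -1.64, -1.72, -1.67 and -1.44, so as deposited none of the 5 was within 1 of LL 10 mM.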
